A study of Gallus gallus with 28 samples.

Results

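Matrix metalloproteases (MMPs) and the neighbouring metalloprotease families ADAM and ADAMTS were followed, with the tissue inhibitors of metalloproteases (TIMPs), in the basilar papilla of the chicken. The members are the genes whose symbol in the deposited table is MMP, ADAM or ADAMTS followed by a number, or TIMP followed by a digit. These were 43 of 17684 features, namely 13 MMP, 2 TIMP, 12 ADAM and 16 ADAMTS genes. The 28 RNA sequencing samples came from 2 arms. The treated arm (15 samples) held papillae that were taken out, kept for 24 h with streptomycin and then allowed to recover. Streptomycin is an aminoglycoside, a class of antibiotics toxic to hair cells. The control arm (13 samples) is labelled with no treatment. Times are those of the labels, 0, 24, 48, 72, 96, 120, 144 and 168 h. In the treated arm 0 h is the end of the streptomycin exposure, not a time before it, and the later times are hours of recovery. Both arms had 2 samples at each time except treated at 96 h and controls at 72, 96 and 120 h, which had 1. The deposited table also holds columns headed as second samples of these groups. They match no listed sample and were not used. The labels give neither strain, age nor sex, nor whether a group's samples are from different animals or cultures, so each p refers to the spread among these libraries alone and could be technical.

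MMPs cut collagens and other matrix proteins outside the cell, and the secreted ones are made as inactive precursors. TIMPs bind the active site of MMPs and, in the case of TIMP3, also that of some ADAM and ADAMTS enzymes. ADAM proteins sit in the cell membrane, where several release the outer part of receptors and growth factors, Notch and its ligands among them, and ADAMTS proteins are secreted enzymes that cut proteoglycans and procollagens. In the bird papilla, supporting cells that border lost hair cells divide or change fate to replace them, and Notch signalling takes part in that choice. The roles given below are known mainly from mammals.

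Libraries held 16.5 to 38.2 M alignments, with a median of 19.8 M. Markers of hair cells checked the labels. Their summed level over 12 genes was 8.87 to 33.2 RPKM (reads scaled to gene length in kilobases and to library size in M reads) in treated samples at 0 to 48 h and 466 to 1006 RPKM in controls. Late, at 120 to 168 h, the sum was 13.7 to 23.7 RPKM in treated samples and 134 to 322 RPKM in controls. The summed level of 10 supporting cell markers was 239 ± 63 RPKM in treated samples at 120 to 168 h and 1544 ± 311 RPKM at 0 to 48 h (SD, n = 6 each), and 208 ± 44 RPKM in controls at 120 to 168 h (n = 5) and 1561 ± 456 RPKM at 0 to 48 h (n = 6). Of the 9 of these markers that were tested, 7 were higher and 1 lower in treated samples early (median log2 difference 1.13), and 2 were higher and none lower late (median 0.14), by limma as described below. Of all features tested, 27.6% were higher and 23.5% lower early, and 4.31% were higher and 15.1% lower late. These are bulk samples, so fewer cells of a type and less RNA per cell cannot be told apart, and the part of cell composition in the results below was not tested.

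Of the 43 members, 37 reached 1 RPKM in at least 2 samples and were tested. The other 6 were MMP3 (highest value 0.138 RPKM), ADAM11 (0.663 RPKM), ADAM15 (0.115 RPKM), ADAM19 (1.33 RPKM), ADAMTS15 (1.03 RPKM) and ADAMTS19 (0.547 RPKM). Of the tested members, 9 averaged at least 10 RPKM over all samples, 25 lay between 1 and 10 RPKM and 3 lay under 1 RPKM. A gene is said to pass when its adjusted p is under 0.05 in limma, a linear model fitted to log2(RPKM + 1) over all 12195 features tested, and differences are fitted log2 values ± standard error on that scale, which understates the change of low genes. With that rule, 34 of the 37 passed in at least 1 of 6 comparisons, against 82.4% of all features tested, and ADAMTS17, ADAMTS18 and ADAMTS20 passed in none.

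Setting each time against its own control asked which members differed on average over the times (n = 15 treated and 13 control samples). A member can pass here without differing at each time. Falls prevailed: 14 members were lower and 2 were higher in treated papillae, where 21.7% of all features tested were lower and 20.2% higher. The median log2 difference was -0.24 over the 37 members and 0.01 over all features tested. The gelatinase gene MMP9, the membrane protease gene ADAM28 and the second gelatinase gene MMP2 had the largest falls on this scale, and ADAMTS8 and ADAM8 were the 2 rises. With a pseudocount of 0.1, among the 16 members that passed here, the falls of TIMP4 (-0.94) and ADAM12 (-0.94) were larger than that of MMP2 (-0.79). In that run MMP1 and ADAMTS9 (-0.51, adjusted p = 0.0366) also passed as lower. The size of the MMP1 fall in that run is not given here, so its place in this order is open. The treated mean was the lower one at 7 or 8 of the 8 times in 15 members and the higher one in 2. The share of all features with such counts was not computed, and controls had 1 sample at 72, 96 and 120 h. The sample number kept as a block within each time gives no weight to treated sample 2 at 72 and 120 h, which has no numbered control partner. With it, 12 members passed in place of 16, and MMP11, ADAM23, ADAMTS12 and ADAMTS14 did not (adjusted p = 0.0591, 0.0654, 0.0546 and 0.104). Without 72, 96 and 120 h, where controls had 1 sample, 12 members passed, ADAMTS9 newly so (-0.37, adjusted p = 0.0114), and MMP16, TIMP4, ADAM9, ADAMTS12 and ADAMTS14 did not (adjusted p = 0.107, 0.058, 0.128, 0.164 and 0.0948). When the filter on low values was removed, ADAM11 and ADAM19, which lie under it, also passed as lower.

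The times of 0, 24 and 48 h were compared next (n = 6 treated and 6 control samples). Here 17 members were lower and 8 higher in treated papillae, against 23.5% and 27.6% of all features tested, with a median of -0.30 over the members and 0.03 over all features. Of 12 MMP genes, 8 fell and 1 rose; of 9 ADAM genes, 3 fell and 3 rose; of 14 ADAMTS genes, 5 fell and 4 rose; and of the 2 TIMP genes, TIMP4 fell. In 3 members the treated and control samples did not overlap, with ADAMTS6 and ADAMTS8 above the controls and ADAM28 below them, and among all features tested 10.1% lay above and 7.28% below without overlap. The counts were 5 higher and 8 lower when 48 h was left out, and the lower count was 10 without control sample 2 at 24 h and 11 without control sample 1 at 48 h.

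In the late window (n = 6 treated and 5 control samples) 10 members were lower and none was higher by limma, against 15.1% and 4.31% of all features. At an unadjusted p under 0.05, 12 were lower and 3 higher, and these 3 were MMP13, MMP27 and ADAMTS8. The median was -0.11 over the members and -0.07 over all features. Most late calls were in ADAM genes, with 6 of 9 lower, beside 3 of 14 ADAMTS genes and 1 of 12 MMP genes. In 5 members all treated samples lay below all controls, namely MMP9, ADAM9, ADAM10, ADAM17 and ADAMTS7, and in none above, against 8.7% and 2.72% of all features. With the block by sample number within each time the counts were 12 lower and 3 higher, adding MMP9 (-0.88, adjusted p = 0.00921) and TIMP4 (-0.50, adjusted p = 0.0244) to the lower and MMP13 (1.55, adjusted p = 0.000136), MMP27 and ADAMTS8 to the higher. After rescaling libraries by median-of-ratios factors they were 7 lower and 1 higher, ADAMTS8. Without the only control sample at 120 h, which also dropped the treated samples of that time from the contrast, they were 4 lower and 1 higher.

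Both windows were combined to ask how the members stood early and late. The share of all features with each combination of calls was not computed, so the counts of combinations describe the members alone. Of the 37, 3 were higher early and lower late (ADAM10, ADAM17 and ADAMTS5), 5 were lower in both windows (ADAM12, ADAM23, ADAM28, ADAMTS3 and ADAMTS7), 12 were lower early and did not pass late, and 5 were higher early and did not pass late. Among those lower in both windows, only ADAM28 kept both calls in each alternative run. A test of the difference itself passed for 10 members, with 4 higher (MMP1, MMP7, MMP11, MMP27) and 6 lower (MMP15, ADAM9, ADAM10, ADAM17, ADAMTS1, ADAMTS5) in the late treatment effect than in the early one. Among all features 12.6% were higher and 21.9% lower. Rescaling shifted the median of all features by 0.12 on the log2 scale here and gave 5 higher and 3 lower, and the block within each time gave 10 higher and 7 lower. The windows share no samples with each other, but all 6 comparisons draw on the same treated and control libraries and are not independent.

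**Figure D1:**
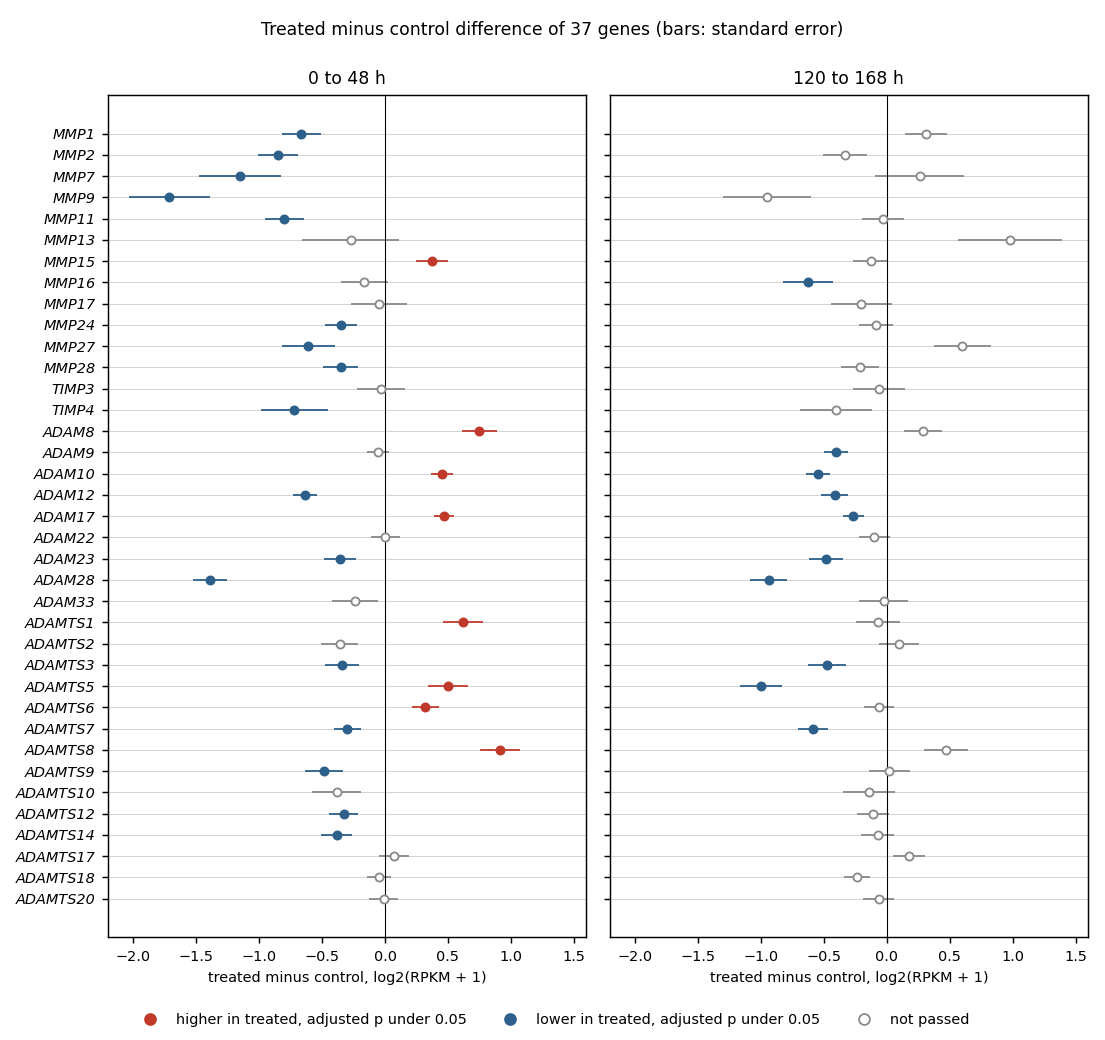
Treated minus control difference on the log2(RPKM + 1) scale for the 37 tested members, at 0 to 48 h in the left panel and at 120 to 168 h in the right panel. Points are fitted differences and bars their standard errors; red points passed as higher in treated (8 early, 0 late), blue points passed as lower (17 early, 10 late), and open grey points did not pass.

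Gelatinases held most of the signal of the MMP members, which do not include MMP14. MMP9, or gelatinase B, which cuts denatured collagen and basement membrane collagen and is made in large amounts by myeloid cells, averaged 210 ± 184 RPKM in treated papillae at 0 to 48 h and 605 ± 290 RPKM in controls (SD, n = 6 each). Its treated values ran from 84.7 RPKM through a median of 127 RPKM to 570 RPKM, and its control values from 283 RPKM through 607 RPKM to 1038 RPKM. Treated sample 1 at 0 h, with 570 RPKM, was the only treated sample above the mean of the controls of its time, and the groups overlapped. The difference was -1.71 ± 0.32 (adjusted p = 0.000286) and kept its call in each alternative run. In controls MMP9 peaked at 72 h with 1567 RPKM in a lone sample, where the treated samples had 217 and 156 RPKM.

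Late in the course MMP9 was still lower in treated samples, at 381 and 281 RPKM at 120 h, 260 and 252 RPKM at 144 h, and 214 and 454 RPKM at 168 h. Controls had 615 RPKM at 120 h, 857 and 475 RPKM at 144 h, and 460 and 510 RPKM at 168 h. Every treated sample lay below every control, yet the difference of -0.95 ± 0.35 did not pass (adjusted p = 0.0637), except with the block by sample number within each time, as given above, in the fit of the compared samples only, and without either treated sample at 0 h or treated sample 2 at 168 h. Over all times MMP9 fell by 1.52 ± 0.24 on the log2 scale (adjusted p = 2.22e-05). Leukocyte markers were read beside it. The summed level of 12 of them was 59.0 to 87.1 RPKM in treated samples and 64.7 to 141 RPKM in controls at 0 to 48 h, and 113 to 246 RPKM in treated samples and 244 to 314 RPKM in controls at 120 to 168 h. Of these 12, 2 fell and 1 rose early, against 23.5% and 27.6% of all features tested. Late, 8 of the 12 fell, against 15.1% of all features. None of the 12 markers was at 0 in every sample, and their part in the MMP9 result was not tested.

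MMP2, or gelatinase A, which is made mainly by mesenchymal cells and is activated at the cell surface, had values of 10.04 to 41.0 RPKM with a median of 17.3 RPKM in treated samples at 0 to 48 h. Controls had 19.5 to 101 RPKM with a median of 27.6 RPKM. Every treated sample lay below the control mean of its time, although the ranges overlapped across times, and the fall of 0.85 ± 0.16 passed (adjusted p = 0.000322). The gap was widest in RPKM at 72 h, with 49.4 and 32.5 RPKM in treated samples and 207 RPKM in the control. Late, MMP2 stood at 109 ± 7 RPKM in treated samples (n = 6) and at 135 ± 36 RPKM in controls (n = 5), and the difference of -0.33 ± 0.17 did not pass (adjusted p = 0.201). The summed level of 13 mesenchyme markers, COL1A1 and COL3A1 among them, was 47.0 to 182 RPKM in treated samples and 96.2 to 279 RPKM in controls at 0 to 48 h, with 6 of the 13 lower and none higher. Late it was 287 to 464 RPKM in treated samples and 245 to 610 RPKM in controls, with 1 of the 13 lower. Of all features tested, 23.5% were lower and 27.6% higher early, and 15.1% were lower late. The part of these markers in the MMP2 result was not tested.

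Summed over the 13 genes, MMP expression was 305 ± 183 RPKM in treated and 717 ± 327 RPKM in control samples at 0 to 48 h (n = 6 each), and 520 ± 103 RPKM in treated (n = 6) and 823 ± 186 RPKM in control samples (n = 5) at 120 to 168 h. MMP9 made up 62.5% ± 14.1 of the treated and 83.4% ± 4.5 of the control sum early, and 58.2% ± 5.6 of the treated and 70.4% ± 5.5 of the control sum late. Without MMP9 the sums of these windows lay closer, at 95.1 ± 25.9 RPKM in treated and 112 ± 45 RPKM in control samples early, and 213 ± 15 RPKM in treated and 240 ± 47 RPKM in control samples late. At 72 and 96 h the sums without MMP9 did not overlap, with 120 to 208 RPKM in treated (n = 3) and 265 to 323 RPKM in control samples (n = 2). With MMP9 the sums averaged 404 RPKM in treated and 1527 RPKM in control samples at those times. These sums are a description and were not tested, and they lack MMP14, as no feature carried that symbol.

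**Figure D2:**
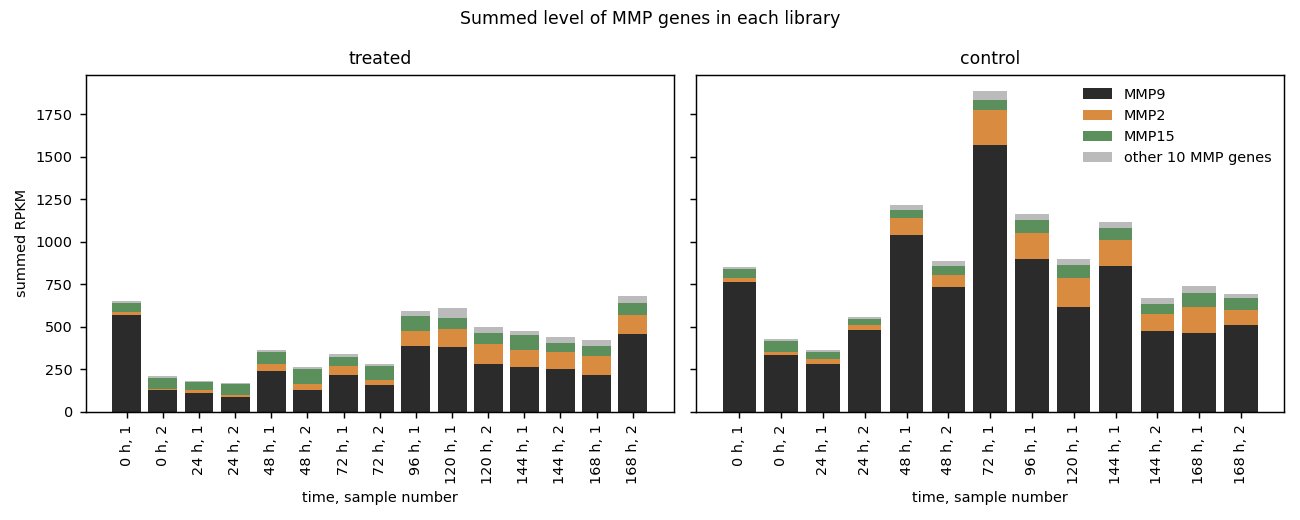
Summed RPKM of the 13 MMP genes in each library, treated on the left and control on the right, split into MMP9, MMP2, MMP15 and the other 10 genes. Bars are single libraries in order of time and sample number; MMP9 fills most of the control bars, and the sum is highest in the control at 72 h, at 1890 RPKM.

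Collagenases, matrilysin and their relatives were low at first. MMP1, the interstitial collagenase, ran from 0.046 to 0.555 RPKM with a median of 0.0854 RPKM in treated samples at 0 to 48 h and from 0.239 to 1.62 RPKM with a median of 0.791 RPKM in controls. It fell by 0.66 ± 0.16 (adjusted p = 0.00183), and the call was lost when 48 h was left out (-0.41, adjusted p = 0.0913). In controls it reached 9.44 RPKM at 96 h, when the treated sample had 0.829 RPKM. Late it ranged from 0.808 to 6.31 RPKM in treated and from 2.18 to 3.97 RPKM in control samples, with overlap. By 168 h the order had turned, with 6.31 and 5.72 RPKM in treated and 2.18 and 2.21 RPKM in control samples. The late difference of 0.32 ± 0.17 did not pass (adjusted p = 0.203), but the change of the treatment effect did, at 0.98 ± 0.23 (adjusted p = 0.00353), under each alternative run.

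MMP27, a little-studied relative of the stromelysins, and MMP11, or stromelysin-3, which furin activates inside the cell, followed a like course. At 72 h MMP27 had 1.56 and 1.08 RPKM in treated samples and 11.2 RPKM in the control. At 120 h it had 7.84 and 5.89 RPKM in treated samples and 3.11 RPKM in the control. Its early difference was -0.61 ± 0.21 (adjusted p = 0.0224), its late one 0.60 ± 0.23 (adjusted p = 0.073), and the change between them 1.21 ± 0.31 (adjusted p = 0.00642). Early it ranged from 0 to 1.37 RPKM with a median of 0.370 RPKM in treated and from 0 to 3.83 RPKM with a median of 0.859 RPKM in control samples. Late it ranged from 3.04 to 7.84 RPKM in treated and from 1.54 to 3.95 RPKM in control samples, with overlap in both windows. The early call was lost with a pseudocount of 0.1 (-1.24, adjusted p = 0.0746), when 48 h was left out (-0.19, adjusted p = 0.583), and without treated sample 2 at 0 h, control sample 1 at 0 h or control sample 1 at 48 h (adjusted p = 0.0968, 0.0927 and 0.0612), and the change lost its call with a pseudocount of 0.1 or with narrower windows.

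MMP11 had 0.508 to 3.71 RPKM with a median of 0.733 RPKM in treated and 0.476 to 8.77 RPKM with a median of 2.76 RPKM in control samples at 0 to 48 h, a fall of 0.80 ± 0.16 (adjusted p = 0.000385). Every treated sample was below the control mean of its time. Late it averaged 9.07 ± 3.19 RPKM in treated (6.43 to 14.6 RPKM, n = 6) and 8.70 ± 2.12 RPKM in control samples (5.82 to 11.2 RPKM, n = 5), and the change of the effect was 0.77 ± 0.23 (adjusted p = 0.0153, lost with narrower windows). MMP7, or matrilysin, which epithelia make, had a median of 0.237 RPKM in treated and 2.64 RPKM in control samples early, with ranges of 0 to 3.36 RPKM in treated and 0.229 to 8.28 RPKM in control samples. It fell by 1.15 ± 0.33 (adjusted p = 0.00731, lost when 48 h was left out). Late it ranged from 1.77 to 7.42 RPKM in treated and from 1.57 to 9.25 RPKM in control samples, with wide overlap, and its change of 1.41 ± 0.48 (adjusted p = 0.0309) was lost without any of 11 single libraries (highest adjusted p = 0.138), with no filter on low values and with narrower windows (0.81, adjusted p = 0.313).

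MMP13, a collagenase of cartilage and bone, was listed at 0 in both treated samples at 0 h and in treated sample 2 at 24 h, and no control sample was at 0. Controls at 0 h had 0.221 and 0.316 RPKM. At 120 h the treated samples had 22.3 and 1.15 RPKM and the control 1.68 RPKM, so sample 1 stood far apart from its partner. The late difference was 0.98 ± 0.42 with all samples (adjusted p = 0.107) and 0.41 without sample 1 at 120 h (adjusted p = 0.22). It passed without sample 2 at 120 h and with the block by sample number within each time (above), which gives that sample no weight.

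**Figure D3:**
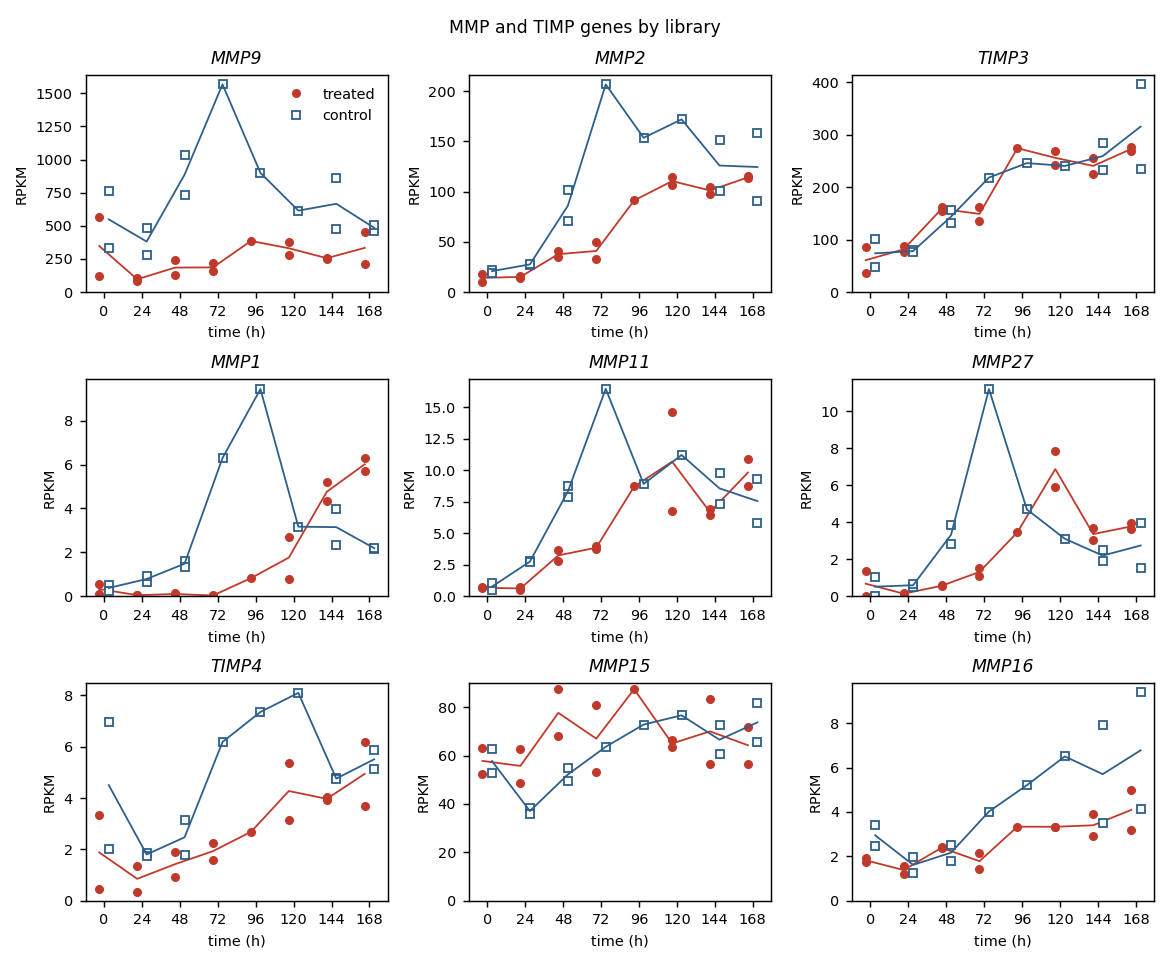
RPKM of 7 MMP and 2 TIMP genes by time in each library, red filled circles for treated and blue open squares for control samples, with lines through the group means. Control peaks at 72 or 96 h (1567 RPKM for MMP9, 207 RPKM for MMP2, 9.44 RPKM for MMP1) rest on single libraries, and TIMP3 runs at like levels in both arms.

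Membrane-type MMPs stay at the cell surface. MMP15 was among the most abundant members. Early it had 48.7 to 87.3 RPKM in treated samples, with middle values of 62.7 and 63.0 RPKM, and 35.7 to 62.7 RPKM with a median of 51.1 RPKM in controls. No other MMP gene rose in that window; MMP15 did by 0.37 ± 0.13 (adjusted p = 0.0208), with 5 of 6 treated samples above the control mean of their time. At 24 h the treated samples had 48.7 and 62.7 RPKM and the controls 38.3 and 35.7 RPKM, and at 48 h the treated samples had 67.9 and 87.3 RPKM and the controls 49.6 and 54.7 RPKM. The call was lost without any of 5 single libraries (treated sample 2 at 0, 24 or 48 h, control sample 1 at 0 or 48 h; highest adjusted p = 0.0708) and when 48 h was left out (0.28, adjusted p = 0.156). Late, MMP15 averaged 66.4 ± 10.3 RPKM in treated (n = 6) and 71.4 ± 8.5 RPKM in control samples (n = 5), and its change of -0.50 ± 0.19 (adjusted p = 0.0471) was lost without any of 15 single libraries, with no filter, with no intensity trend, after rescaling and with narrower windows (highest adjusted p among these 4 = 0.252).

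MMP16 did not pass early (-0.16 ± 0.18, adjusted p = 0.481) and was the only MMP gene called late. Its treated values were 3.32 and 3.34 RPKM at 120 h, 3.89 and 2.91 RPKM at 144 h, and 5.01 and 3.17 RPKM at 168 h. Its control values were 6.51 RPKM at 120 h, 7.92 and 3.50 RPKM at 144 h, and 9.42 and 4.16 RPKM at 168 h. At 144 and 168 h sample 1 was above sample 2 in both arms, by more in controls. The fall of 0.63 ± 0.20 (adjusted p = 0.0353) was lost without any of 7 single libraries (highest adjusted p = 0.118), and also with a pseudocount of 0.1, with no filter, after rescaling, with only the compared samples and with narrower windows (highest adjusted p = 0.123). MMP24, found mainly in nervous tissue, was 3.45 ± 1.23 RPKM in treated (2.14 to 5.41 RPKM) and 4.54 ± 0.75 RPKM in control samples early (3.14 to 5.33 RPKM), a fall of 0.35 ± 0.13 (adjusted p = 0.0293). That call was lost without any of 6 libraries and when 48 h was left out (-0.07, adjusted p = 0.737). MMP17, which a lipid anchor holds at the membrane, lay at or under 0.615 RPKM in all early samples and did not pass in either window. MMP28, or epilysin, is secreted and not of the membrane type. It fell early by 0.35 ± 0.14 (adjusted p = 0.0473, lost without any of 12 libraries, with no filter and with narrower windows) and by 0.29 ± 0.09 over all times (adjusted p = 0.0119).

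Inhibitors were represented by TIMP3 and TIMP4. No feature carried the symbol TIMP2, so the TIMP sum and share below cover these genes alone. TIMP3, which binds to the matrix, was the second most abundant member at 0 to 48 h, with 36.5 to 163 RPKM and a median of 86.3 RPKM in treated samples and 47.4 to 156 RPKM and a median of 90.5 RPKM in controls. The groups overlapped through most of their range. Its treatment difference was -0.03 ± 0.19 early and -0.06 ± 0.21 late (adjusted p = 0.901 and 0.877), values near 0 whose sign turned under some alternatives. Late it had 242 and 269 RPKM at 120 h, 225 and 256 RPKM at 144 h, and 270 and 276 RPKM at 168 h in treated samples, and 240 RPKM at 120 h, 285 and 234 RPKM at 144 h, and 396 and 234 RPKM at 168 h in controls. The 168 h control with 396 RPKM was the highest of all 28 libraries. TIMP4 was low, at 1.38 ± 1.11 RPKM in treated and 2.92 ± 2.06 RPKM in control samples early (n = 6 each). The treated mean lay below the control mean at all 8 times, and it fell by 0.66 ± 0.17 over all times (adjusted p = 0.00313) and by 0.72 ± 0.26 early (adjusted p = 0.031, lost without any of 7 libraries, with no filter, with only the compared samples and with narrower windows). TIMP3 made up 98.5% ± 1.2 of the TIMP sum in treated and 96.9% ± 1.9 in control samples early, and the sum of both genes was 102 ± 49 RPKM in treated and 102 ± 40 RPKM in control samples.

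Among the ADAM sheddases, ADAM10 and ADAM17 were higher early and lower late. ADAM10, which makes the first cut in activated Notch receptors, had 36.2 to 46.1 RPKM with a median of 40.4 RPKM in treated and 19.6 to 38.5 RPKM with a median of 29.2 RPKM in control samples at 0 to 48 h. The arms were alike at 0 h, with 39.2 and 38.0 RPKM in treated and 36.7 and 38.5 RPKM in control samples. They parted at 24 h, with 36.2 and 42.5 RPKM in treated and 29.2 and 19.6 RPKM in control samples. The rise over the window was 0.45 ± 0.09 (adjusted p = 0.000405). Late, all 6 treated samples (40.3 to 53.0 RPKM, median 47.4 RPKM) lay below all 5 controls, which had 72.5 RPKM at 120 h, 72.2 and 69.5 RPKM at 144 h, and 66.2 and 64.8 RPKM at 168 h. The late fall was 0.55 ± 0.09 (adjusted p = 0.000748) and the change of the effect -0.996 ± 0.129 (adjusted p = 3.53e-05), and these 3 calls held in each alternative run. Over all times the difference was 0.01 ± 0.11 (adjusted p = 0.938).

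ADAM17, the converting enzyme of tumour necrosis factor, followed the same order. Early it had 21.6 to 29.8 RPKM in treated samples, with middle values of 25.1 and 26.0 RPKM. Controls had 12.3 to 25.1 RPKM with a median of 18.1 RPKM, and the treated rise was 0.47 ± 0.08 (adjusted p = 0.000127). At 24 h the treated samples had 21.6 and 26.0 RPKM and the controls 12.3 and 13.3 RPKM, while at 0 h both arms lay between 23.0 and 25.1 RPKM. Late the treated samples ran from 21.8 to 27.8 RPKM, below the controls at 31.2 RPKM at 120 h, 33.7 and 30.6 RPKM at 144 h, and 29.8 and 28.4 RPKM at 168 h. The late fall of 0.26 ± 0.09 (adjusted p = 0.0395) was lost without any of 15 single libraries (highest adjusted p = 0.116), with no intensity trend, after rescaling, with only the compared samples and with narrower windows, whereas the change of -0.73 ± 0.12 (adjusted p = 0.000222) held in each alternative run. The treated level hardly moved between the windows (0.01 ± 0.08, adjusted p = 0.896), while controls rose by 0.74 ± 0.09 (adjusted p = 2.37e-06).

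ADAM9, another membrane sheddase, did not differ early (-0.06 ± 0.09, adjusted p = 0.6) at 15.5 ± 1.9 RPKM in treated and 16.2 ± 2.4 RPKM in control samples. Late it was 18.1 to 23.3 RPKM in treated samples and 24.1 to 31.0 RPKM in controls, without overlap (-0.40 ± 0.09, adjusted p = 0.00596). That call was lost when the lone control at 120 h was left out, which also dropped the treated samples of that time (-0.30, adjusted p = 0.0667). That control was the highest of the controls. The change of the effect, -0.35, passed but lost its call in 18 of 37 alternative runs.

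ADAM28, a protease known from lymphocytes and epithelia, fell in both windows and over all times. Its treated values were 3.51 and 3.41 RPKM at 0 h, 1.71 and 1.77 RPKM at 24 h, and 5.53 and 3.96 RPKM at 48 h. Its control values were 5.75 and 6.36 RPKM at 0 h, 6.63 and 11.7 RPKM at 24 h, and 17.0 and 17.2 RPKM at 48 h. No early treated sample reached the lowest control, and the fall was 1.39 ± 0.13 (adjusted p = 2.53e-07). Late, the treated samples ran from 3.88 to 11.4 RPKM with a median of 4.88 RPKM, and the controls had 13.5 RPKM at 120 h, 13.1 and 12.8 RPKM at 144 h, and 9.41 and 9.22 RPKM at 168 h. Treated sample 1 at 120 h, with 11.4 RPKM, was the only one above the lowest control, and the fall was 0.94 ± 0.14 (adjusted p = 0.000298). All 15 treated samples lay below the control mean of their time, and the calls early, late and over all times (-1.14 ± 0.12, adjusted p = 1.39e-07) held in each alternative run.

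ADAM12, a protease of muscle and mesenchyme, was also below the control mean of its time in all 15 treated samples. At 0 h it had 0.453 and 0.419 RPKM in treated and 2.42 and 2.08 RPKM in control samples, so that the arms did not overlap at that time. It fell by 0.63 ± 0.10 early (adjusted p = 4.06e-05) and by 0.41 ± 0.10 late (adjusted p = 0.0105). The late call was lost without the lone control at 120 h, which dropped that time from both arms (-0.13, adjusted p = 0.493). It was also lost with only the compared samples (adjusted p = 0.055). ADAM8, known from leukocytes, went the other way. Its treated samples had 23.0 and 27.9 RPKM at 0 h, 14.96 and 18.2 RPKM at 24 h, and 14.2 and 10.7 RPKM at 48 h, and its controls 11.3 and 11.2 RPKM at 0 h, 9.86 and 7.34 RPKM at 24 h, and 10.9 and 9.49 RPKM at 48 h. All 6 treated samples exceeded the control mean of their time, most at 0 h, and the rise was 0.75 ± 0.14 (adjusted p = 0.000262). The leukocyte marker sum given above was not higher in treated samples in either window, and its part in the ADAM8 result was not tested. Late ADAM8 ranged from 11.2 to 14.1 RPKM in treated and from 6.64 to 13.3 RPKM in control samples, and the difference was 0.29 ± 0.15 (adjusted p = 0.198).

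ADAM23 and ADAM22, which lack protease activity and bind LGI proteins at synapses, had different calls, and no test compared them with each other. ADAM23 fell early by 0.36 ± 0.13 and late by 0.48 ± 0.14 (adjusted p = 0.0248 and 0.0204), with all treated samples of both windows below the control mean of their time, but 6 single libraries ended the early call, and 4 the late one, as did rescaling, only the compared samples and narrower windows. The summed level of 7 neuron markers was read beside it, at 179.6 to 389.7 RPKM in treated and 192.9 to 338.7 RPKM in control samples early, and at 143.0 to 432.7 RPKM in treated and 164.1 to 233.0 RPKM in control samples late. Of the 6 tested, 4 were lower and none higher in treated samples early, against 23.5% and 27.6% of all features. Late, 3 were lower and 1 higher, against 15.1% and 4.31% of all features. The part of these markers in the ADAM23 result was not tested. ADAM22 averaged 0.895 ± 0.229 RPKM in treated (n = 15) and 0.990 ± 0.317 RPKM in control samples (n = 13) and did not pass in any treatment comparison. ADAM33, a mesenchymal protease, did not pass in any treatment comparison either.

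**Figure D4:**
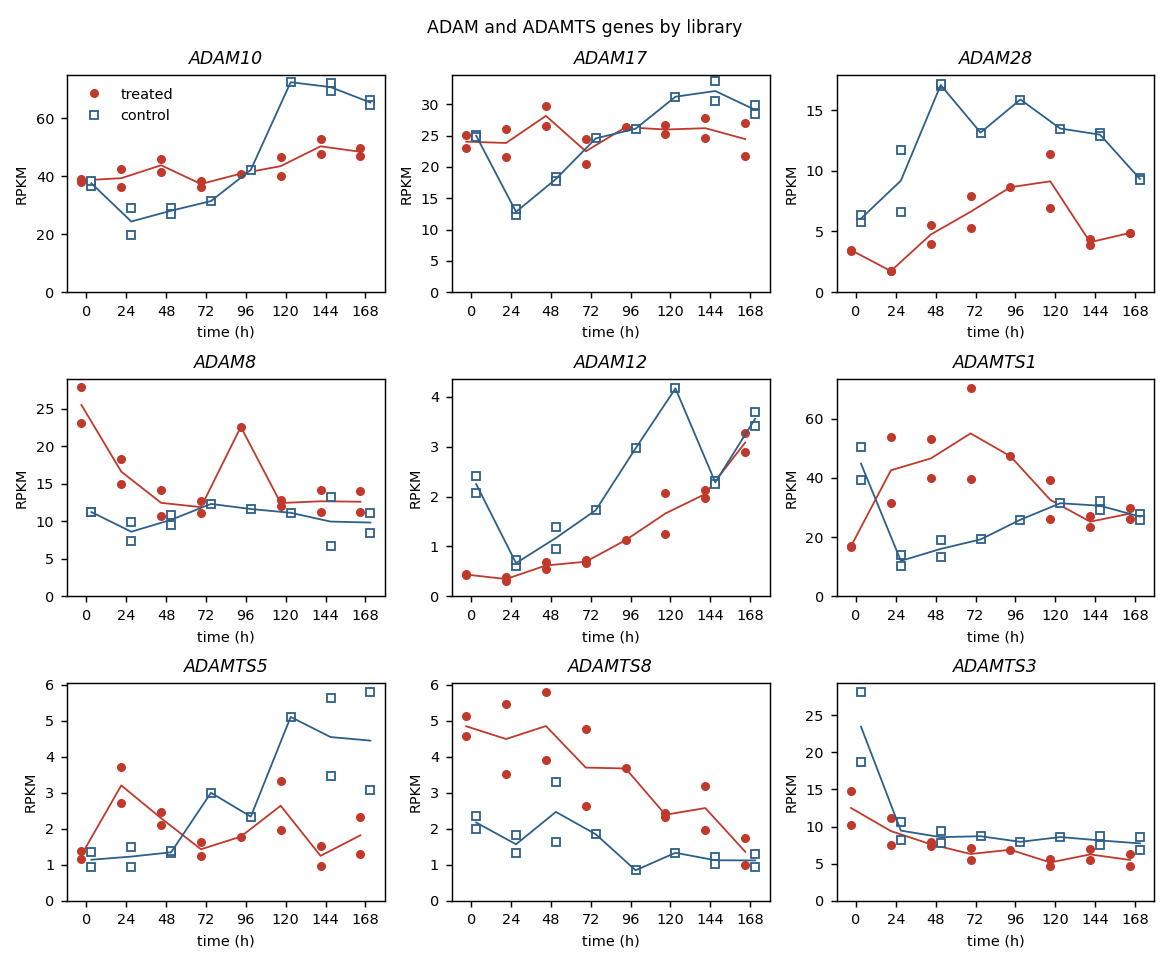
RPKM of 5 ADAM and 4 ADAMTS genes by time in each library, red filled circles for treated and blue open squares for control samples, with lines through the group means. ADAM10 and ADAM17 lie above the controls at 24 and 48 h and below them from 120 h on, while ADAM28 and ADAM12 lie below them throughout.

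ADAMTS8, an enzyme that can cut aggrecan, had 5.12 and 4.57 RPKM at 0 h, 3.50 and 5.47 RPKM at 24 h, and 3.90 and 5.80 RPKM at 48 h in treated samples, and 1.98 and 2.36 RPKM at 0 h, 1.31 and 1.82 RPKM at 24 h, and 1.64 and 3.29 RPKM at 48 h in controls. All early treated samples lay above all early controls, a rise of 0.92 ± 0.16 (adjusted p = 0.000149). The treated mean exceeded the control mean at all 8 times (0.75 ± 0.11 over all times, adjusted p = 1.51e-05), and both calls held in each alternative run. Late it ranged from 0.987 to 3.17 RPKM in treated and from 0.941 to 1.33 RPKM in control samples. The late difference of 0.47 ± 0.17 did not pass (adjusted p = 0.0644), but did with a pseudocount of 0.1, after rescaling and with either block by sample number.

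ADAMTS1, a versican- and aggrecan-cutting enzyme, crossed over within the early window. At 0 h it had 17.0 and 16.8 RPKM in treated and 50.3 and 39.3 RPKM in control samples. At 24 h it had 31.5 and 53.6 RPKM in treated and 10.1 and 13.8 RPKM in control samples, and at 48 h 53.2 and 39.9 RPKM in treated and 18.9 and 13.1 RPKM in control samples. The window mean of 0.62 ± 0.16 (adjusted p = 0.004) therefore pools a lower 0 h with higher 24 and 48 h values, and it was 0.18 without 48 h (adjusted p = 0.478). The treated level was highest at 72 h, with 39.5 and 70.4 RPKM against 19.2 RPKM in the control. Late, the arms were close, at 28.6 ± 5.6 RPKM in treated (n = 6) and 29.3 ± 2.6 RPKM in control samples (n = 5). The change of the effect, -0.69, passed but lost its call in 14 of 37 alternative runs.

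ADAMTS5, the main aggrecanase of cartilage in mice, turned like ADAM10. It had 1.16 and 1.37 RPKM at 0 h, 3.71 and 2.70 RPKM at 24 h, and 2.47 and 2.11 RPKM at 48 h in treated samples, and 1.35 and 0.921 RPKM at 0 h, 0.943 and 1.504 RPKM at 24 h, and 1.31 and 1.37 RPKM at 48 h in controls. All 6 treated samples exceeded the control mean of their time (0.50 ± 0.16, adjusted p = 0.0137). Late the treated samples had 0.974 to 3.32 RPKM with a median of 1.73 RPKM, and the controls 5.11 RPKM at 120 h, 5.64 and 3.46 RPKM at 144 h, and 5.81 and 3.09 RPKM at 168 h. Only treated sample 1 at 120 h reached the control range. The late fall of 0.998 ± 0.171 (adjusted p = 0.000686) and the change of -1.50 ± 0.23 (adjusted p = 0.000163) held in each alternative run.

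ADAMTS9, which cuts versican, fell early by 0.48 ± 0.15 (adjusted p = 0.0124, 0.0519 without control sample 2 at 24 h and 0.0658 when 48 h was left out) at 0.461 ± 0.170 RPKM in treated and 1.08 ± 0.49 RPKM in control samples, and was 0.02 ± 0.16 late (adjusted p = 0.946). ADAMTS6, a relative of the fibrillin-binding ADAMTS10, was 0.806 to 1.21 RPKM in treated and 0.359 to 0.700 RPKM in control samples early, without overlap (0.32 ± 0.11, adjusted p = 0.0208), though the call was lost without treated sample 2 at 24 h, treated sample 1 at 48 h or control sample 1 at 24 h (adjusted p = 0.0566, 0.0525 and 0.0534) and when 48 h was left out (adjusted p = 0.0596). ADAMTS10 did not pass in any treatment comparison.

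Procollagen proteinases remove the amino-terminal propeptide of fibrillar collagens. ADAMTS3, which also activates the growth factor VEGFC, was highest at 0 h, with 10.1 and 14.9 RPKM in treated and 18.8 and 28.2 RPKM in control samples. Its ranges were 7.32 to 14.9 RPKM in treated and 7.74 to 28.2 RPKM in control samples early, and 4.65 to 7.02 RPKM in treated and 6.79 to 8.71 RPKM in control samples late, with overlap in both windows. The treated mean was the lower one at all 8 times, and it fell by 0.38 ± 0.10 over all times (adjusted p = 0.0033). The falls within the windows, 0.34 ± 0.14 early and 0.47 ± 0.15 late, passed narrowly (adjusted p = 0.0474 and 0.0335), and 11 and 6 single libraries ended them. The early call was also lost with a pseudocount of 0.1, no filter or only the compared samples, and the late one with no filter or narrower windows. ADAMTS14 fell early by 0.38 ± 0.12 (adjusted p = 0.0132, lost when 48 h was left out), and ADAMTS2 did not pass early (-0.36 ± 0.15, adjusted p = 0.0504) but did with the block by sample number. The early count of lower members was 18 in place of 17 with the block, and also with no intensity trend and after rescaling. ADAMTS7 and ADAMTS12, which cut the cartilage matrix protein COMP, also fell. ADAMTS7 was below the control mean of its time in all 15 treated samples, with 0.260 to 1.25 RPKM in treated and 1.27 to 1.77 RPKM in control samples late (-0.58 ± 0.12, adjusted p = 0.00223, held in each alternative run). Its early fall lost its call with a pseudocount of 0.1 and without any of 5 libraries (highest adjusted p = 0.0795). ADAMTS12 fell early by 0.33 ± 0.12 (adjusted p = 0.0265, lost without any of 6 libraries and with narrower windows).

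Time itself was then compared within each arm, late against early. Of the 37 members, 16 rose and 2 fell in both arms. The share of all features that did so in both arms was not computed, so this count describes the members alone. In treated papillae (n = 6 and 6) 22 rose and 4 fell, against 24.8% and 29.9% of all features tested, with a median of 0.66 over the members and -0.04 over all features. In controls (n = 5 late and 6 early) 21 rose and 3 fell, against 28.7% and 20.3% of all features, with a median of 0.62 over the members and 0.07 over all features. In 17 members of the treated arm (15 higher, 2 lower) late and early samples did not overlap, against 11.8% of all features higher and 15.6% lower. In the control arm this held for 11 members (all higher), against 16% of all features higher and 9.45% lower.

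MMP2 had 97.9 to 115 RPKM late and 10.04 to 41.0 RPKM early in treated papillae (2.39 ± 0.16, adjusted p = 4.4e-09), and 91.0 to 172 RPKM late and 19.5 to 101 RPKM early in controls (1.87 ± 0.17, adjusted p = 2.21e-07). These were the largest rises among the members on this scale, but not with a pseudocount of 0.1, where 6 other MMP genes rose more in treated papillae (MMP13, MMP1, MMP27, MMP7, MMP17 and MMP11, by 2.83 to 4.01, against 2.45 for MMP2) and MMP17 rose more in controls (3.06, against 1.90). TIMP3 rose by 1.501 ± 0.192 in treated and by 1.53 ± 0.21 in control papillae (adjusted p = 4.5e-06 and 1.28e-05). MMP17 had 1.33 to 3.96 RPKM late and 0 to 0.615 RPKM early in treated papillae (1.43 ± 0.22, adjusted p = 3.31e-05), and 1.15 to 6.52 RPKM late and 0 to 0.614 RPKM early in controls (1.59 ± 0.24, adjusted p = 3.62e-05). No late sample of MMP17 or TIMP3 fell within the early range of its arm.

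For MMP1, MMP11, MMP27, ADAM10 and ADAMTS5 the change with time differed between the arms, which is the difference tested above. In treated papillae MMP11 rose by 2.10 ± 0.16, MMP1 by 2.03 ± 0.16 and MMP27 by 1.96 ± 0.21, and in controls they rose by 1.33 ± 0.17, 1.05 ± 0.17 and 0.75 ± 0.23. ADAM10 rose by 0.22 ± 0.09 in treated papillae (adjusted p = 0.0419, lost without any of 12 libraries and with no intensity trend) and by 1.22 ± 0.09 in controls (adjusted p = 3.24e-08). ADAMTS5 was -0.17 ± 0.16 in treated papillae (adjusted p = 0.393) and rose by 1.33 ± 0.17 in controls (adjusted p = 6.68e-06). MMP9 rose by 0.84 ± 0.32 in treated papillae (adjusted p = 0.0358, lost without any of 8 libraries, with no filter, with only the compared samples and with narrower windows). In controls MMP9 was 0.07 ± 0.35 (adjusted p = 0.878), where its peak at 72 h falls in neither window. Its difference between the arms, 0.76 ± 0.47, did not pass (adjusted p = 0.226), except without treated sample 1 at 0 h (1.12, adjusted p = 0.0314) and with the sample number as a block inside each time (0.83, adjusted p = 0.0273).

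Falls with time were few. ADAMTS8 fell by 0.90 ± 0.16 in treated papillae (adjusted p = 0.000128) and by 0.46 ± 0.17 in controls (adjusted p = 0.035, lost without any of 5 libraries, with no filter and with narrower windows). ADAMTS3 fell by 0.68 ± 0.14 in treated papillae and by 0.55 ± 0.15 in controls (adjusted p = 0.000449 and 0.00543). ADAM8 fell by 0.44 ± 0.14 in treated papillae (adjusted p = 0.0125) and ADAMTS7 by 0.28 ± 0.11 (adjusted p = 0.0334, lost without any of 8 libraries and with only the compared samples). MMP24 fell by 0.49 ± 0.14 in controls, with 2.36 to 3.81 RPKM late and 3.14 to 5.33 RPKM early (adjusted p = 0.00712). In the same span 13 of 13 mesenchyme markers rose in treated papillae and 10 of 13 in controls. Of 12 leukocyte markers, 10 rose and 2 fell in treated papillae, and 10 rose in controls. Among all features tested 24.8% rose and 29.9% fell in treated papillae, and 28.7% rose in controls. The part of either marker list in these changes was not tested.

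**Figure D5:**
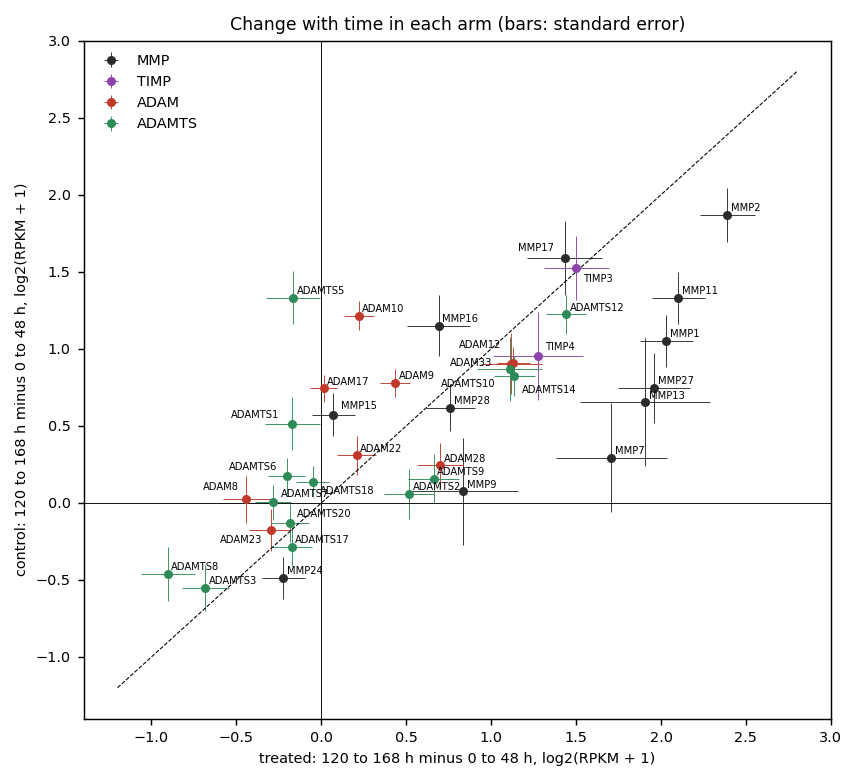
Late (120 to 168 h) minus early (0 to 48 h) difference on the log2(RPKM + 1) scale for the 37 tested members, treated papillae on the horizontal and controls on the vertical axis, with standard errors as bars. Points on the dashed line changed equally in both arms; ADAMTS5 and ADAM10 lie above it (1.33 and 1.22 in controls), and MMP1, MMP11 and MMP27 lie below it.

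Other proteolysis genes were read beside the members, with 21.7% of all features tested lower and 20.2% higher over all times. Of 7 tested genes of the plasminogen system, which activates several MMP precursors, 1 rose and 5 fell over all times. PLAU, the urokinase that makes plasmin, was the rise (1.62 ± 0.16, adjusted p = 1.96e-08), and it was also higher early (1.71 ± 0.13) and late (1.18 ± 0.15). The falls included the serine protease inhibitors SERPINF2, which blocks plasmin (-1.85 ± 0.20), and SERPINI1, made by neurons (-1.41 ± 0.15). Of 10 regulators of MMPs, 1 rose and 6 fell, among them the membrane-anchored inhibitor RECK (-0.39 ± 0.10), the protease scavenger A2M (-1.30 ± 0.18) and the proteoglycan SPOCK3 (-1.69 ± 0.15), and the rise was SPOCK1 (0.59 ± 0.15). Of 5 proprotein convertases 2 fell, PCSK2, a convertase of secretory granules (-2.94 ± 0.23), and PCSK5 (-0.88 ± 0.16). Of 5 partners of ADAM10 and ADAM17, the tetraspanin TSPAN15, which binds ADAM10, fell (-0.97 ± 0.10, adjusted p = 1.02e-07), a share near that of all features.

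Substrates of ADAMTS enzymes were also lower, with 6 of 10 down and none up over all times, versican (VCAN, -1.05 ± 0.18) and the matrilin MATN2 (-1.24 ± 0.12) among them. Of 13 cathepsins and cystatins, the lysosomal proteases and their inhibitors, 11 fell and none rose over all times (CTSS -0.84 ± 0.12, CTSC -0.83 ± 0.14 by limma). All 13 rose with time in both arms, where 24.8% of all features rose in treated papillae and 28.7% in controls. Of 12 leukocyte markers, 10 rose in each arm and 2 fell in treated papillae. Of 13 mesenchyme markers, 13 rose in treated papillae and 10 in controls. The part of either list in the cathepsin changes was not tested. All 4 ADAMTS-like proteins, which lack the protease domain, fell, and 1 of 2 genes of the astacin list fell (TLL1, -0.72 ± 0.10). Of 5 enzymes of heparan sulfate and hyaluronan 2 fell and none rose.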

How the data were processed

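The authors deposited RPKM values per gene in 1 table with 32 sample columns. Of these, 4 match no sample and were not used. By their headings they are second samples of the groups that have 1 sample here. Nothing was recounted, and no gene counts were used. The submitters' processing notes name TopHat 1.4.0 and Partek 6.6 without roles. The genome build, annotation and strand were not given in the sources used here. No coordinates or sequences are reported and the planned motif search was not run.

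The 12195 features that reached 1 RPKM in 2 or more samples were fitted as log2(RPKM + 1) with limma 3.58.1 in R 4.3.3 (lmFit, eBayes with an intensity trend, two-sided, Benjamini-Hochberg over all features). The comparison over all times added a treatment term to a term for each time (19 residual degrees of freedom); the windows were contrasts among 16 group means (12 residual degrees of freedom), where a lone sample is taken to vary as much as the paired ones do. The fits were also run on simulated data. Noise there was drawn independently for each library, so those runs cannot show how an effect shared by sample number bears on p. Members and lists were chosen with earlier results of these data known. The rule for naming took the 3 largest rises and falls of each comparison, whose values are given by sample or, for groups over 5 samples, by their range; and 15 genes were to be followed whether or not they passed, of which MMP14 and TIMP2 were not analysed here and ADAM19 was under the filter. Symbols of 41 members are in the RefSeq gene table. Across genes, the sample 2 minus sample 1 difference in treated papillae correlated with that in controls at 0.31 (0 h), 0.29 (24 h), 0.11 (48 h), 0.48 (144 h) and 0.41 (168 h). Equal sample numbers were taken as pairs only in the alternatives with a block, and the main fits used no pairing. Alternatives were a pseudocount of 0.1, no filter or 1 RPKM in 4 samples, no trend, median-of-ratios rescaling, a block by sample number, only the compared samples, narrower windows, no 72, 96 and 120 h, and leaving out each library. Leaving out the lone control at 120 h also took the treated samples of that time out of the late contrasts. The late window was then 144 and 168 h in both arms.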

Additional observations from a re-analysis of the deposited data

Results flagged for a closer look

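The treatment effect at 120 to 168 h differed from that at 0 to 48 h in 10 members by the test of the difference itself (late minus early effect, limma). It was higher late for MMP7 (1.41), MMP27 (1.21), MMP1 (0.98) and MMP11 (0.77). It was lower late for ADAMTS5 (-1.50), ADAM10 (-0.996), ADAM17 (-0.73), ADAMTS1 (-0.69), MMP15 (-0.50) and ADAM9 (-0.35). Of these, MMP1, ADAM10, ADAM17 and ADAMTS5 kept the call under every alternative run. Of 37 runs each, MMP15 lost it in 19, ADAM9 in 18, ADAMTS1 in 14, MMP7 in 13, MMP27 in 2 and MMP11 in 1.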

How the results depend on the processing

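Of 4091 values of 111 passing member results under the alternatives, 3800 kept their call, 291 lost it and 0 changed sign; 70 results lost it nowhere. With narrower windows the early counts were 5 higher and 8 lower, the late counts 1 higher and 4 lower, and the difference counts 2 higher and 3 lower; fewer samples carry these contrasts. Late higher counts were 1 with a pseudocount of 0.1, 1 after rescaling, 2 with the block across all samples and 3 with the replicate block within each time, which also gave 10 higher for the difference; rescaling gave 3 lower there. The cause was not tested. The block changed no other member count by over 1.5 times.

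Leaving out 1 library gave 6 to 8 higher and 10 to 18 lower members early, 0 to 1 higher and 4 to 10 lower late, 3 to 6 higher and 3 to 7 lower for the difference, 2 to 3 higher and 12 to 17 lower over all times, 19 to 22 higher and 2 to 4 lower in controls, and 20 to 22 higher and 3 to 5 lower in treated papillae.

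Of 1140 values of followed members that had not passed, 31 gained the call and 47 changed sign. Rescaling gave -0.0063 for ADAM10 over all times, 0.012 for ADAMTS1 and 0.022 for TIMP3 late, 0.0044 for ADAMTS3 and 0.13 for TIMP3 in the difference, and -0.021 for MMP9 in controls. Narrower windows gave -0.20 for ADAMTS9 late, 0.052 for ADAMTS3 in the difference and 0.00037 for ADAMTS1 with time in treated papillae. The block across all samples gave 0.020 for TIMP3 in the difference, and the block within each time 0.029 for ADAMTS1 late. Leaving out 1 library gave ranges that cross 0 for ADAM10 over all times (-0.050 to 0.093), ADAM9 (-0.12 to 0.0021) and TIMP3 early (-0.23 to 0.17), ADAMTS1 (-0.16 to 0.029), ADAMTS9 (-0.20 to 0.15) and TIMP3 late (-0.19 to 0.067), TIMP3 in the difference (-0.22 to 0.17), MMP9 in controls (-0.12 to 0.27), and ADAM17 (-0.036 to 0.064) and MMP15 with time in treated papillae (-0.022 to 0.16). Values under 1 RPKM rest on few reads, and no counting error can be given from RPKM.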
